A study of Mus musculus with 23 samples.

Results

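The 43 genes described here encode the machinery that copies DNA and were taken by symbol from a list of replication genes. All 43 were among the 32285 genes of each count matrix. By role, 10 license replication origins, 6 activate the replicative helicase and 9 are DNA polymerase or primase subunits. A further 8 load or use the sliding clamp or join Okazaki fragments, and 2 bind single-stranded DNA. Another 4 supply nucleotides or, in the case of Ung, remove uracil from DNA. The last 4 are regulators: Hells of chromatin, Chek1 of a checkpoint, E2f1 of transcription and Dtl of the licensing factor Cdt1. Their levels were read in 11 droplet gene-expression libraries of KSL cells, the c-Kit-positive, Sca1-positive, lineage-negative fraction of mouse bone marrow that holds blood stem cells and early progenitors. Every mouse, Controls included, is labelled as carrying Mx1-Cre, a recombinase under an interferon-responsive promoter that is active in blood cells and in other tissues. Ezh2 KO libraries came from mice with floxed Ezh2, the catalytic subunit of Polycomb repressive complex 2, and Jarid2 KO libraries from mice with floxed Jarid2, a co-factor of the same complex. The baseline experiment used untransplanted mice of 2 months, with 1 male (replicate 1) and 1 female (replicate 2) library a genotype (Control, Ezh2 KO, Jarid2 KO). The transplant experiment used CD45.2 donor KSL cells sorted 18 weeks after 500000 donor marrow cells had been given with 500000 CD45.1 competitor cells to irradiated hosts, with 1 Control, 2 Ezh2 KO and 2 Jarid2 KO libraries. The sources do not say how many animals a library holds, so p-values measure only the spread between these libraries. At baseline the male and the female library of a genotype come from different animals. After transplantation the spread may be technical.

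Replication starts when the origin recognition complex, Cdc6 and Cdt1 load the ring of Mcm2 to Mcm7 onto DNA before S phase. In S phase Cdc45 and the GINS complex turn that ring into the active helicase, polymerase alpha with primase lays the first primers, and polymerases delta and epsilon extend the strands behind the Pcna clamp. Many of these genes are transcribed under E2F factors at the entry into S phase, and ribonucleotide reductase and thymidylate synthase supply the deoxynucleotides. Most blood stem cells are quiescent and progenitors divide, so the genes serve as readouts of division in marrow.

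The kept cells numbered 73310 of 97066 barcodes, 4354 to 9208 a library, with 67533820 to 126346471 UMIs (unique molecular identifiers, each standing for 1 captured transcript end) a library. Any pair of libraries shared 4 to 30 barcodes. In the transplant libraries cells with female transcripts made up 59.5% in Control, 48.3% and 49.9% in Jarid2 KO, and 0.0163% and 0.0511% in Ezh2 KO, so the sexes of the cells differ between those groups. Levels below are CPM, a gene's UMIs in 1000000 UMIs, over all kept cells of a library. They are not scaled by gene length, so ranks between genes are ranks of counts. Kit stood at 241 to 295 CPM at baseline and 125 to 159 after transplantation, and Ly6a (Sca1) at 49.3 to 74.1 and 19.2 to 33.9. The 10 stem markers summed to 1105 to 1616 CPM at baseline and 175 to 206 after transplantation, and the 10 myeloid markers to 480.3 to 885 and 8401 to 17408: the transplant libraries hold mostly cells with myeloid markers. The targeted gene Ezh2 stood at 209 and 193 CPM in baseline Controls and 163 and 148 in Ezh2 KO, and at 184 and at 38.9 and 47.1 after transplantation. Jarid2 was not lower in the libraries labelled Jarid2 KO (215 and 204 against 159 and 150 CPM in Controls at baseline, 57.2 and 57.4 against 38.4 after transplantation). Where its deleted exons lie relative to the counted 3′ ends is not given in the sources used here, so this does not check the label. Libraries labelled Jarid2 KO are meant wherever Jarid2 KO is written.

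The promoters of 4 genes are printed: those of Rrm2 and Pcna, which were called between genotypes, and those of Mcm5 and Mcm6, which carry E2F words. Each is the 250 bases before a transcription start listed by RefSeq on GRCm38.p6, read 5′ to 3′ on the gene's strand. The listed span of Mcm5 begins at 75109468, inside its window, so the end of that window lies within the gene. Capitals mark an E2F word (TTTCCCGC, TTTCGCGC, TTTGCCGC or TTTGGCGC on either strand) or CCAAT on either strand, the letters bound by NF-Y, and overlapping words run together.
Rrm2, chr12:24708004-24708253, plus strand: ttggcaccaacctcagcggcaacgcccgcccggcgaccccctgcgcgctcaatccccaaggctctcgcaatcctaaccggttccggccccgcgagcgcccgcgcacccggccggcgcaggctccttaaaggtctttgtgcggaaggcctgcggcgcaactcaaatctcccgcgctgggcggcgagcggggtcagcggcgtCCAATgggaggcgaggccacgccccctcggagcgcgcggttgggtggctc
Pcna, chr2:132253181-132253430, minus strand: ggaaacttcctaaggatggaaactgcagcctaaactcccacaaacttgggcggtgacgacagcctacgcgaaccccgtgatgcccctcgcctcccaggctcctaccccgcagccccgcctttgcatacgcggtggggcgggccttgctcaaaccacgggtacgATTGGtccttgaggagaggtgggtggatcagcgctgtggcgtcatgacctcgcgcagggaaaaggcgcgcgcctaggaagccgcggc
Mcm5, chr8:75109259-75109508, plus strand: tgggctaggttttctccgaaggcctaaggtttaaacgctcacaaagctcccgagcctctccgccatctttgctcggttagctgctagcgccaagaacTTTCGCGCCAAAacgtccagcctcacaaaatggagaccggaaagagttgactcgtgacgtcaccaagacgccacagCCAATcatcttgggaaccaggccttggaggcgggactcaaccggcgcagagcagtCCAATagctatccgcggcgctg
Mcm6, chr1:128359706-128359955, minus strand: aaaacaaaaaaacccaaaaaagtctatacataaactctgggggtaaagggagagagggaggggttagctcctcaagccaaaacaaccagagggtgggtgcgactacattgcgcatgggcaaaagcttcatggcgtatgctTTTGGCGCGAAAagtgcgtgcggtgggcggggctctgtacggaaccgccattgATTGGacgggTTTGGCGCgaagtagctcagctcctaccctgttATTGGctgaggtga
RefSeq windows matched 36 of the 43 genes. An E2F word lay in 10 of the 36 (27.8%), against 2.16% of all 27025 genes with a window. CCAAT lay in 21 of the 36 (58.3%), against 37.5% of all genes. TTTGAA, the core of the cell cycle homology region element of late cell cycle genes, lay in 5 of the 36 (13.9%), against 18.3% of all genes. Mcm6 holds 3 E2F words and Mcm5 holds 2, while Rrm2 and Pcna hold none and 1 CCAAT each. A match is only a run of letters in this window, and no match says only that these letters are not in it.

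The 43 genes together made up 0.277% to 0.312% of UMIs at baseline and 0.336% to 0.374% after transplantation. Their summed level at baseline was 2872 and 2983 CPM in Control, 3116 and 2946 with Ezh2 KO, and 2782 and 2775 with Jarid2 KO. After transplantation it was 3619 in Control, 3707 and 3698 with Ezh2 KO, and 3356 and 3741 with Jarid2 KO. At baseline both Jarid2 KO libraries lay below the other 4, while Control and Ezh2 KO overlapped. Averaged over libraries, single genes ran from 13.8 CPM (Gins3, a GINS subunit) to 242 (Pcna, the sliding clamp) at baseline, and from 8.58 (Orc1, the largest subunit of the origin recognition complex) to 283 (Pcna) after transplantation. No gene had fewer than 536 UMIs in any library. All 43 passed the filter on low counts in every comparison of whole libraries.

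In Ezh2 KO against Control at baseline, 1 of the 43 genes rose and none fell by edgeR's quasi-likelihood test at an adjusted p under 0.05, a share (2.33%) near the 2.92% of all 18196 genes tested that were called higher (3.61% in either direction). The riser was Rrm2, the small subunit of ribonucleotide reductase, the enzyme that makes deoxynucleotides from ribonucleotides. Rrm2 stood at 46.1 and 34.3 CPM in Control, 74.8 and 55.9 with Ezh2 KO, and 37.7 and 36.0 with Jarid2 KO. Both Ezh2 KO libraries lay above the other 4, and within each genotype the male library was the higher. The log2 change was 0.75 ± 0.10 (SE, adjusted p = 0.0340, edgeR), and without the term for sex it was 0.75 with an adjusted p of 0.172. The call was also lost without the female Control library (0.67, adjusted p = 0.0576) and without the male Ezh2 KO library (0.64, adjusted p = 0.0971). At an unadjusted p under 0.05, 12 members were higher and 1 was lower, together 30.2% of them, against 23.4% of all genes. The median member change was 0.10, against a median of -0.004 over all genes, and 32 of 43 estimates were above 0. In 16 of 43 members (37.2%) both Ezh2 KO libraries lay above both Controls, against 17.3% of all genes tested, and in 7 (16.3%) both lay below, against 30.4%. Leaving out 1 library gave 0 to 5 members called, 5 without the female Ezh2 KO library, and medians of 0.01 to 0.17.

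The next genes by p missed the threshold, with smaller changes than Rrm2. Orc6, an origin recognition subunit, gave 0.22 ± 0.05 (SE, adjusted p = 0.0712), Cdc45, the helicase activator, 0.27 ± 0.06 (adjusted p = 0.0831), Pcna 0.21 ± 0.05 (adjusted p = 0.0867) and Gins2, another GINS subunit, 0.19 ± 0.05 (adjusted p = 0.0895), all by edgeR. DESeq2 called Orc6 (0.22, adjusted p = 0.0277) and Pcna (0.21, adjusted p = 0.0143) in this comparison.

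In Jarid2 KO against Ezh2 KO at baseline, 3 of 43 genes were lower and none higher, a share (6.98%) against 4.54% of all genes called lower and 6.12% called in either direction. Rrm2 fell by 0.83 ± 0.10 on the log2 scale (SE, adjusted p = 0.0237, edgeR). Pcna fell by 0.36 ± 0.05 (SE, adjusted p = 0.0290, edgeR), from 284 and 257 CPM in Ezh2 KO to 217 and 210 in Jarid2 KO, with Control between them at 249 and 234. Gins2 fell by 0.27 ± 0.05 (SE, adjusted p = 0.0414, edgeR), from 46.5 and 45.3 CPM to 38.3 and 39.0, with Control at 40.9 and 42.0. For both genes the 3 genotypes did not overlap, in the order Ezh2 KO, Control, Jarid2 KO. Pcna has processed pseudogene copies in the mouse, and how reads that fit a copy were counted is not given in the sources used here. Orc6 (-0.24 ± 0.05, SE, adjusted p = 0.0505) and Tyms, thymidylate synthase (-0.29 ± 0.07, SE, adjusted p = 0.0682), missed the threshold by edgeR. DESeq2 called both (adjusted p = 0.00863 and 0.00807). By edgeR Orc6 was also called without the filter on low counts (0.0405), with genes of at least 10 CPM (0.0441) and with all deposited barcodes (0.0495). In 29 of 43 members (67.4%) both Jarid2 KO libraries lay below both Ezh2 KO libraries, against 22.5% of all genes, and in 2 (4.65%) both lay above, against 30.9%. Of the 43, 17 were lower at an unadjusted p under 0.05 (39.5%, against 26.5% of all genes in either direction). The median member change was -0.14 and that of all genes 0.01. Leaving out 1 library gave 0 to 9 members called, 9 without the female Ezh2 KO library, and medians of -0.22 to -0.05. The comparison shares its Ezh2 KO libraries with the one before.

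Without the sex term none of the 3 was called (adjusted p = 0.115 for Rrm2, 0.0923 for Pcna and 0.103 for Gins2). Without the male Ezh2 KO library none was called either (0.0695, 0.0711 and 0.105), and Pcna and Gins2 also lost the call without either Jarid2 KO library (Pcna 0.212 and 0.117, Gins2 0.273 and 0.179).

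In Jarid2 KO against Control at baseline, edgeR called none of the 43 genes, against 0.0275% of all genes, and DESeq2 called none. At an unadjusted p under 0.05, 5 were lower and none higher, 11.6% of members against 11.5% of all genes, so their number was at the background. They were Ung, uracil-DNA glycosylase (-0.23 ± 0.06, SE, adjusted p = 0.318), Pcna (-0.15 ± 0.05, adjusted p = 0.371), Pole2, a polymerase epsilon subunit (-0.14 ± 0.05, adjusted p = 0.372), Dtl, which marks Cdt1 for destruction in S phase (-0.13 ± 0.04, adjusted p = 0.373), and Rfc2, a clamp loader subunit (-0.11 ± 0.04, adjusted p = 0.401), all by edgeR. The median member change was -0.04, against 0.00 over all genes, and 29 of 43 estimates were below 0. Without the female Control library the median turned to 0.04, and without the male one it was -0.10. In 17 of 43 members (39.5%) both Jarid2 KO libraries lay below both Controls, against 21.1% of all genes, and in 1 (2.33%), Chek1, both lay above, against 15.6%.

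**Figure D1:**
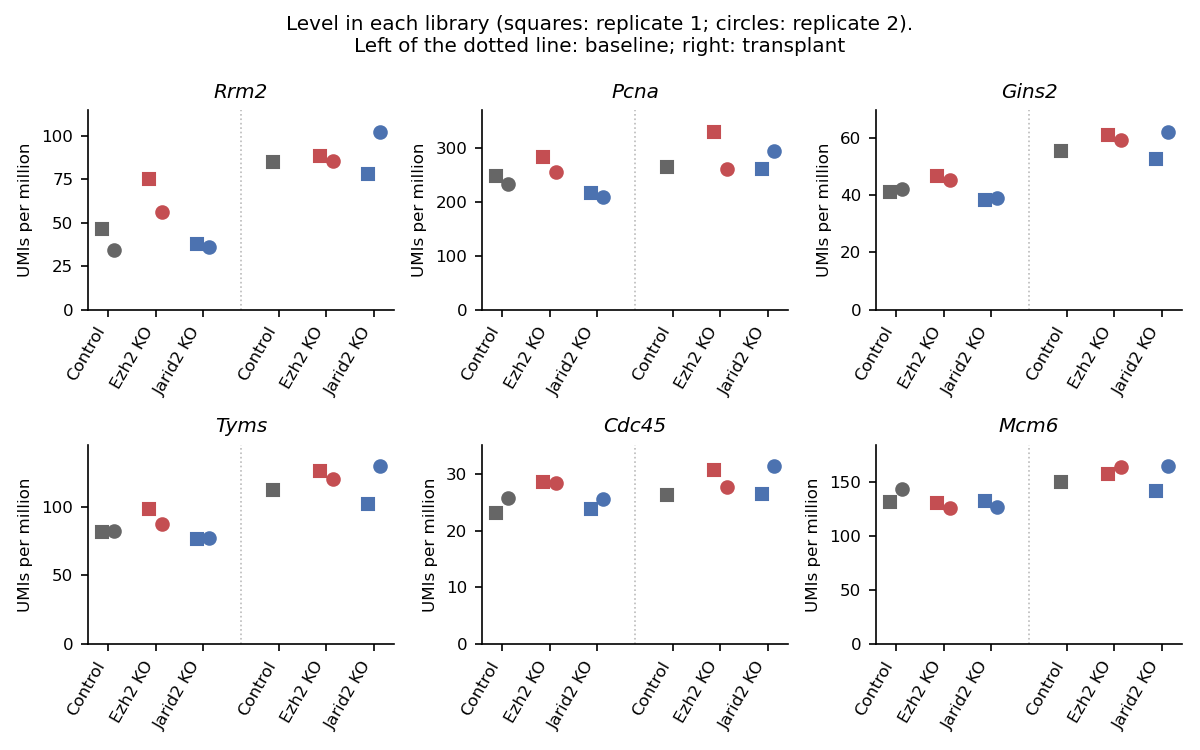
Level of 6 replication genes in each library, in CPM, with Control in grey, Ezh2 KO in red and Jarid2 KO in blue, baseline left and transplant right of the dotted line. Rrm2 stands at 74.8 and 55.9 in baseline Ezh2 KO and at 34.3 to 46.1 in the other 4 baseline libraries, and every transplant library lies at 77.6 or above.

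Cells with B lineage markers moved with these values. Each kept cell of at least 5000 UMIs was thinned to 5000 UMIs, and was put under the marker list, of 11, of which it showed the most of 10 markers, with at least 3 and no tie. This gives ranges cut from a score rather than cell types, and 18.8% to 28.5% of baseline cells had exactly 3. The B list (with Cd79a, Vpreb1, Igll1, Ebf1 and Pax5 among its markers) took 5.78% and 2.01% of cells in Control, 18.3% and 9.90% with Ezh2 KO, and 2.81% and 3.14% with Jarid2 KO. The 10 markers summed to 1100 and 332 CPM in Control, 3148 and 1681 with Ezh2 KO, and 476 and 467 with Jarid2 KO, with each of the 10 above both Controls in both Ezh2 KO libraries and none at 0 in any library. With the cells of the B list left out, an alternative added after seeing the data, edgeR called none of the 43 in any baseline comparison. Cells under 5000 UMIs, 342 to 723 a baseline library, could not be put under a list and stayed in, so the removal may be partial. Rrm2 was then at 0.13 in Ezh2 KO against Control (adjusted p = 0.241) and -0.06 in Jarid2 KO against Ezh2 KO (adjusted p = 0.492). Pcna was at -0.21 (adjusted p = 0.0829) and Gins2 at -0.09 (adjusted p = 0.375) in the latter. The median member change was 0.02 in Ezh2 KO against Control and -0.03 in Jarid2 KO against Ezh2 KO. In summed libraries, fewer cells of a kind and less RNA per cell cannot be told apart.

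The baseline changes in Ezh2 KO against Control are given by role as a description, since no difference between roles was tested. The 6 helicase activation genes (Cdc45, Gins1 to Gins4 and Mcm10) had estimates of 0.09 to 0.27 with a median of 0.18. The 8 clamp and Okazaki fragment genes ran from -0.15 (Rfc2) to 0.22 (Lig1, the ligase that joins the fragments), with a median of 0.14. The 4 genes of nucleotide supply or uracil removal had a median of 0.18, with Rrm2 as the only called member. Tyms stood at 0.22, Rrm1 (the large subunit of the reductase) at 0.13 and Ung, which removes uracil, at -0.02. The 10 licensing genes had a median of 0.07 and the 9 polymerase genes 0.02. Of the regulators, Hells (a chromatin remodeller) stood at 0.20, Chek1 (a checkpoint kinase) at 0.16, E2f1 (an S phase transcription factor) at 0.06 and Dtl at -0.01. The single-strand binding subunits Rpa1 and Rpa2 stood at 0.12 and 0.07. Apart from Rrm2 none of these passed the edgeR test.

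**Figure D2:**
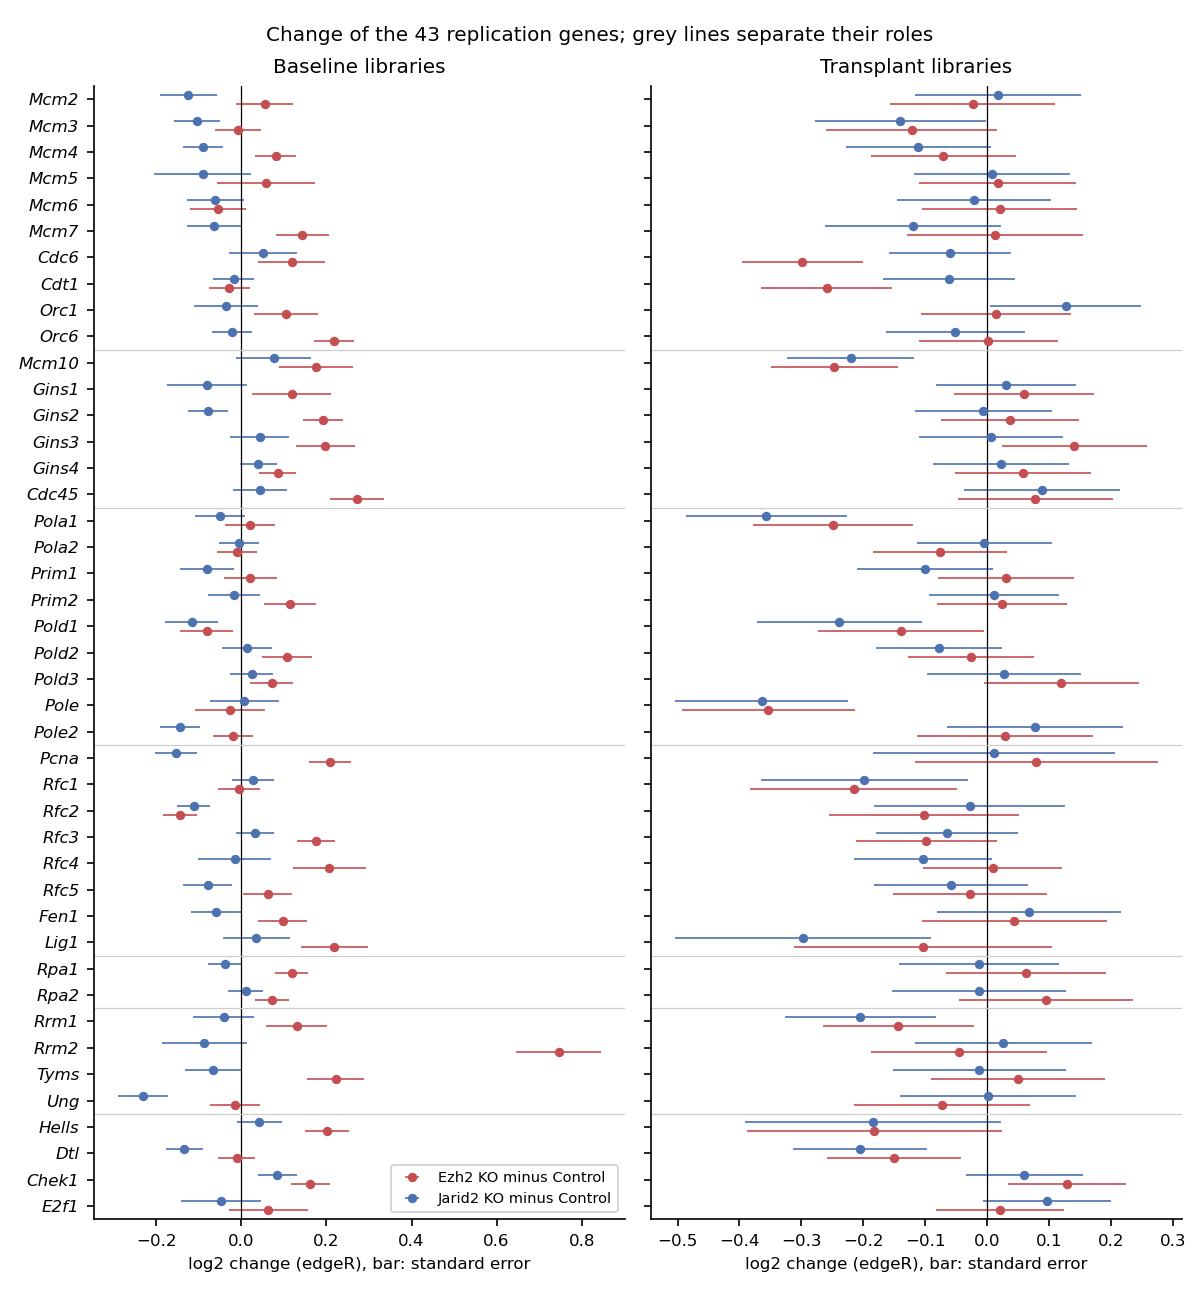
Log2 change of each of the 43 genes, fitted by edgeR, with its standard error, in Ezh2 KO (red) and Jarid2 KO (blue) against Control, for baseline and transplant libraries, with grey lines between roles. Rrm2 at 0.75 stands apart from the other baseline estimates, which lie between -0.23 and 0.27.

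The levels of the licensing genes spanned a wide range at baseline. Mcm3 ran from 130.0 to 147 CPM, Mcm7 from 127 to 152 and Mcm6 from 126 to 144, while Mcm2, Mcm4 and Mcm5 lay between 54.5 and 78.4. Cdc6, which loads the helicase, stood at 20.4 to 23.3, Cdt1 at 39.9 to 43.1, Orc1 at 14.4 to 16.5 and Orc6 at 70.4 to 83.3. Of the polymerase genes, Pola1, the catalytic subunit of polymerase alpha, was highest at 183 to 204 CPM, and the other 8 lay between 28.2 and 72.4.

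Of 55 further replication genes, 8 rose and none fell in Ezh2 KO against Control at baseline (14.5%, against 2.92% of all genes called higher). These genes, and the 24 mitosis genes below, were listed with earlier results of these data known, so their shares are no independent test. The largest changes by edgeR were in E2f2, an E2F factor (0.96 ± 0.12, SE, adjusted p = 0.0305), Pclaf, a Pcna partner (0.78 ± 0.09, adjusted p = 0.0265), Asf1b, a histone chaperone (0.75 ± 0.12, adjusted p = 0.0415), and Dck, deoxycytidine kinase (0.65 ± 0.09, adjusted p = 0.0378). Between the knockouts 10 were lower in Jarid2 KO than in Ezh2 KO and none higher (18.2%, against 4.54% of all genes called lower), with E2f2 at -1.16, Pclaf at -1.04, Dck at -0.85 and Asf1b at -0.74 (adjusted p from 0.0134 to 0.0353, edgeR). Of the same 55, edgeR called none in Jarid2 KO against Control, with 1 higher and 5 lower at an unadjusted p under 0.05 (10.9%, against 11.5% of all genes). Of 24 mitosis genes, 13 rose in Ezh2 KO against Control (54.2%, against the same 2.92%, median 0.50) and 11 were lower in Jarid2 KO against Ezh2 KO (45.8%, against 4.54%, median -0.49). With the B list cells left out, E2f2 stood at 0.44, Pclaf at 0.30, Dck at 0.21 and Asf1b at 0.13 in Ezh2 KO against Control, none of them called. In Jarid2 KO against Ezh2 KO without those cells, Pclaf (-0.47, adjusted p = 0.0453) and Dck (-0.31, adjusted p = 0.0438) were still called by edgeR. E2f2 (-0.39) and Asf1b (0.03) were not. Cells too shallow to be put under a list stayed in here too, so cells of the B lineage may remain behind these calls of Pclaf and Dck. In Ezh2 KO against Control all 4 genes also lost the call without the sex term (adjusted p from 0.0980 to 0.222) and without the male Ezh2 KO library (0.0738 to 0.108). Between the knockouts all 4 lost it without the sex term (0.0661 to 0.132), and E2f2, Dck and Asf1b without the male Ezh2 KO library (0.0573 to 0.0667). Single libraries also ended the call in the first comparison of E2f2 (0.0524 without the female Ezh2 KO library), Asf1b (0.0702 and 0.0695 without either Control) and Dck (0.0744 without the female Control), and in the second of E2f2 (0.0609) and Asf1b (0.148) without the male Jarid2 KO library.

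The level of the replication genes differed between the marker lists in every baseline library. Their summed level, in CPM over the cells under a list, was 2272 to 2404 over the 6 libraries in cells under the stem list, 2513 to 2850 under the lymphoid list, 3018 to 3692 under the megakaryocyte list, 3593 to 4225 under the erythroid list, 3809 to 4170 under the myeloid list, and 3996 to 5034 under the B list. Cells under the dendritic list (1025 to 2495) and the innate lymphoid list (1919 to 2727) overlapped with the stem range. The B list was highest in 6 of 6 libraries, and the dendritic list was lowest in 5 and the innate lymphoid list in 1. Stem and lymphoid cells did not overlap, and neither did lymphoid and megakaryocyte cells, whereas the erythroid and myeloid ranges overlapped. Depth differed between the lists but did not follow this order throughout. The median UMI count was 9650 to 11599 under the stem list, 11355 to 12879 under the lymphoid list and 16712 to 36692 under the myeloid and erythroid lists, but 11221 to 16025 under the B list, which had the highest summed level. Its part in the order was not tested.

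The genes did not scale together. Against cells under the stem list of the same library, all 43 were higher under the myeloid list in all 6 libraries (median log2 difference 0.83), and 40 under each of the erythroid (0.77), B (0.85) and megakaryocyte (0.54) lists. Of all 9140 genes tested that averaged at least 10 CPM at baseline, as each member did, 27.8%, 31.1%, 24% and 26.3% were higher in all 6 libraries under the myeloid, erythroid, B and megakaryocyte lists. Rrm2 showed the widest range. It stood at 15.6 to 22.5 CPM under the stem list and 209 to 292 under the B list, a median 12.3-fold difference, but only 3.20-fold higher than stem under the myeloid list and 3.56-fold under the erythroid list. Tyms was 3.77-fold higher under the B list and 2.17-fold under the myeloid list. Mcm2 went the other way, at 1.62-fold under the B list and 2.06-fold under the myeloid list. Ung was at 1.04-fold under the B list, with estimates on both sides of 0 over libraries, and 2.10-fold under the myeloid list. Rfc2 was the lowest under the B list, at -0.16 on the log2 scale.

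**Figure D3:**
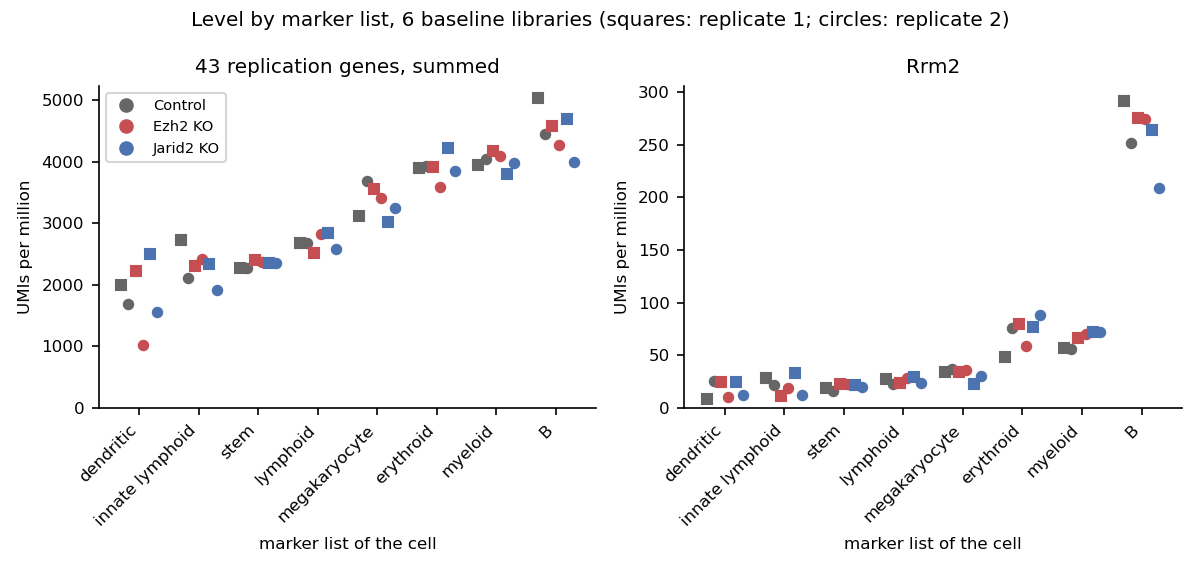
Summed level of the 43 genes (left) and of Rrm2 (right), in CPM, in cells under 8 marker lists in each of the 6 baseline libraries, coloured by genotype. The summed level runs from 1025 under the dendritic list to 5034 under the B list, and Rrm2 under the B list lies at 209 to 292 in every genotype.

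Within the marker lists edgeR called 2 members in Ezh2 KO against Control, 1 in Jarid2 KO against Control and 1 in Jarid2 KO against Ezh2 KO, counted over all lists at baseline. Single libraries moved these counts: leaving out 1 gave 2 to 5, 0 to 5 and 0 to 18. The 18, without the male Ezh2 KO library, held 10 members higher in Jarid2 KO under the dendritic list (against 6.12% of all genes called) and 8 under the erythroid list (against 15.5%). In cells under the stem, lymphoid, myeloid, erythroid, megakaryocyte and innate lymphoid lists edgeR called none in any baseline comparison, and DESeq2 called none in any list. Of all genes, edgeR called 0.639% to 0.991% under the stem list, 0.918% to 1.57% under the lymphoid list, 1.45% to 2.06% under the myeloid list and 0% to 0.746% under the other 3. Single shares there were 0.94% (stem, Ezh2 KO against Control), 1.16% (lymphoid, the same), 1.7% (myeloid, Jarid2 KO against Ezh2 KO), 0.177% (erythroid, the same), 0.201% and 0.276% (megakaryocyte, the 2 comparisons with Ezh2 KO) and 0.295% (innate lymphoid, Jarid2 KO against Ezh2 KO). Under the stem list 17 members were higher in Ezh2 KO than in Control at an unadjusted p under 0.05 and none lower, against 15.9% of all genes in either direction. Likewise 12 were higher there in Jarid2 KO than in Control and none lower, against 13.6% of all genes. The median member changes under the stem list were 0.10 and 0.10. Under the megakaryocyte list 6 members were lower in Jarid2 KO than in Control at an unadjusted p under 0.05 and none higher, against 5.58% of all genes in either direction, with a median of -0.11, which turned to 0.05 without the female Control library. In cells under the B list, Prim2, the large primase subunit, fell by 0.43 ± 0.11 on the log2 scale in Ezh2 KO against Control (SE, adjusted p = 0.0264, edgeR), from 137 and 147 to 106 and 94.98 CPM. Pold1, the catalytic subunit of polymerase delta, fell by 0.37 ± 0.10 (adjusted p = 0.0485), from 66.3 and 62.8 to 50.2 and 45.4. The Pold1 call was lost on leaving out any of the 4 libraries compared (adjusted p from 0.107 to 0.283), without the sex term (0.115), by DESeq2 (0.575) and with at least 2 or 4 markers (0.0603 and 0.0651). The Prim2 call was lost without the female Control (0.229), without the female Ezh2 KO library (0.0925) and by DESeq2 (0.0999). For both genes the groups did not overlap, and 1.6% of the 11528 genes tested in those cells were called lower. Rrm2 in those cells stood at 292 and 252 CPM in Control, 276 and 275 with Ezh2 KO, and 264 and 209 with Jarid2 KO, and was not called. In cells under the dendritic list, Hells was higher in Jarid2 KO than in Control (0.69 ± 0.16, SE, adjusted p = 0.0300, edgeR), at 104 and 69.3 against 62.3 and 45.9 CPM, where 0.278% of genes were called higher. Dtl was higher in Jarid2 KO than in Ezh2 KO (0.74 ± 0.19, adjusted p = 0.0262), at 74.9 and 42.97 against 46.4 and 23.2, where 0.797% were. Hells did not overlap between those groups, whereas Dtl did (46.4 in the male Ezh2 KO library and 42.97 in the female Jarid2 KO library), and it rested on 29 UMIs in the shallowest library compared. The Hells call was lost without either Control (adjusted p = 0.516 and 0.121), without the male Jarid2 KO library (0.266), with at least 4 markers (0.312) and without the sex term, by edgeR. The Dtl call was lost on leaving out any of the 4 libraries compared (0.0794 to 0.119), with at least 4 markers (0.731) and without the sex term (0.883). DESeq2 gave an adjusted p of 0.669 for Hells and 0.633 for Dtl.

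Antibody counts, deposited for the baseline cells, allowed another division. CD150 and CD48 separate stem cells from multipotent progenitors in this fraction. Cells in the upper and lower tertile of their library were called high and low. The summed level of the 43 was 1908 to 2554 CPM in CD150-high CD48-low cells, 2706 to 3096 in CD150-low CD135-high cells and 3472 to 4077 in CD150-high CD48-high cells. A smaller gate, CD150-low CD48-high CD135-low, ran from 3364 to 4608 and was not tested, since it held as few as 28 cells. Of the 3 gates tested, CD150-high CD48-high cells had the highest level in every library. In CD150-high CD48-high cells Rrm2 stood at 123 and 56.9 CPM in Control, 210 and 165 with Ezh2 KO, and 86.0 and 62.9 with Jarid2 KO. Here 4 of 43 members rose in Ezh2 KO against Control by edgeR, against 7.65% of all 12824 genes, led by Rrm2 (1.27 ± 0.18, SE, adjusted p = 0.0117) and Cdc45 (0.51 ± 0.12, adjusted p = 0.0423), with Rfc3 and Pcna. Between the knockouts 8 were lower in Jarid2 KO, against 10.4% of all genes, led by Rrm2 (-1.41 ± 0.18, SE, adjusted p = 0.0057) and Pcna (-0.69 ± 0.10, adjusted p = 0.0072). Leaving out 1 library gave 1 to 3 members in the first comparison, with 1 on leaving out either Control or either Ezh2 KO library. In the second it gave 1 to 9, with 1 and 4 without the male and the female Jarid2 KO library and 3 and 2 without the male and the female Ezh2 KO library. Among the cells of this gate with at least 5000 UMIs, the B list held 37.7% and 5.11% in Control. It held 83.1% and 58.5% with Ezh2 KO, and 18.8% and 13.4% with Jarid2 KO. The Cdc45 call was lost on leaving out any of the 4 libraries compared (adjusted p from 0.128 to 0.205), without the sex term (0.167) and with the other antibody thresholds (0.0599 and 0.189). Rrm2 lost its calls without the sex term (0.164 and 0.100) and in the first comparison with stricter thresholds (0.0542), and Pcna without the sex term (0.0647), with stricter thresholds (0.0508) and without the male Jarid2 KO library (0.0521). Without B list cells, 0 members were called in the first comparison and 2 in the second, against 4.34% and 9.20% of the 11881 genes then tested. Rrm2 then stood at 0.25 and -0.12 and was called in neither. Pcna was still called between the knockouts at -0.40 (adjusted p = 0.0353, edgeR). This left 318 of 841 and 338 of 600 cells with Ezh2 KO, and 204 of 241 and 310 of 349 with Jarid2 KO. Gate cells under 5000 UMIs, which no list could take, stayed in, so cells of the B lineage may remain. In the other gates tested, and in Jarid2 KO against Control, edgeR called no member. Of all genes it called 0%, 0.293% and 0.82% in CD150-high CD48-low cells (Jarid2 KO and then Ezh2 KO against Control, then Jarid2 KO against Ezh2 KO), 0.905%, 1.39% and 2.75% in CD150-low CD135-high cells, and 0.0546% in CD150-high CD48-high cells in Jarid2 KO against Control. In CD150-high CD48-low cells 13 members were lower in Jarid2 KO than in Ezh2 KO at an unadjusted p under 0.05 and none higher, against 17.1% of all genes in either direction, with a median of -0.24. That median was 0.23 with antibody thresholds taken from pooled Control cells and ran from -0.51 to 0.002 on leaving out 1 library, the ends being without the female and without the male Ezh2 KO library. Without the female one, 39 members were called lower in Jarid2 KO than in Ezh2 KO there (against 14.9% of all genes called) and 34 higher in Ezh2 KO than in Control (against 11.3%).

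The genes differed in how their level went with that of mitosis genes. Cells were divided by their UMIs from 24 mitosis genes in 5000: 0, 1 to 9, and 10 or more, limits set after seeing the data. At baseline 29.8% to 40.9% of cells had 0 and 15.5% to 24.8% had 10 or more. The summed level of the 43 was 1427 to 1584 CPM, 3178 to 3488 and 3799 to 3994 in the 3 bins. All 43 were higher in the middle bin than in the first in all 6 libraries, against 32.2% of the same 9140 genes. From the middle to the last bin, 27 (62.8%) were higher in every library, against 29.4% of those genes, and 8 (18.6%) were lower in every library, against 41.8%, and the rest varied. Cells of the last bin were also deeper, with a median of 18902 to 22198 UMIs against 9615 to 11307 in the first. The mitosis genes summed to 5778 to 6365 CPM under the B list, 2112 to 2915 under the erythroid list and 977 to 1311 under the stem list. The parts of depth and of cell composition were not tested.

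Rrm2 and Ung held the ends of the order. Rrm2 went from 2.47 to 3.71 CPM in the first bin to 28.4 to 43.3 in the middle and 77.1 to 164 in the last, a median log2 difference of 5.20 between last and first. Mcm10 (3.75), a helicase activator, Tyms (3.19), Cdc45 (2.83) and Rrm1 (2.65) followed. Of the 43, only Ung was lower in the last bin than in the first in all 6 libraries, as were 42.2% of the 9140 genes. It stood at 20.3 to 27.6 CPM in the first bin, 64.4 to 79.5 in the middle and 14.7 to 19.6 in the last. The other genes lower in the last bin than in the middle in every library were Mcm2, Mcm3, Mcm4, Mcm6, Hells, Dtl and E2f1. E2f1 stood at 10.9 to 13.3, 33.2 to 40.8 and 22.8 to 24.96 CPM. Of the 7 of these 8 genes with a promoter window, 3 held an E2F word (Dtl, Hells and Mcm6), as did 7 of 29 of the other members. After transplantation the order was alike at its ends, with Rrm2 at 2.65 and Ung at -0.88 between last and first bin, and 17 members (39.5%) were lower in the last bin than in the middle in all 5 libraries, against 32.6% of the same genes, and 19 (44.2%) were higher, against 29.7%.

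**Figure D4:**
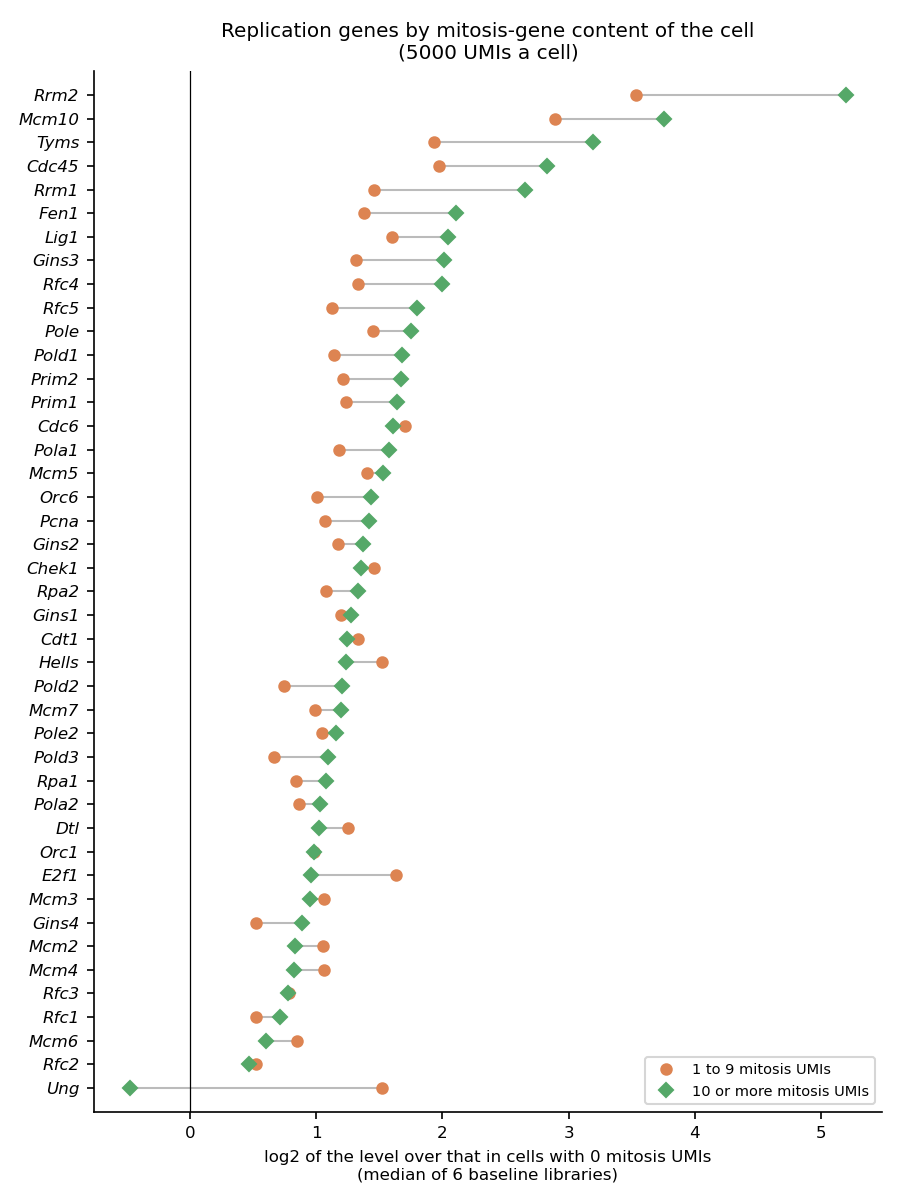
Log2 of each gene's level in cells with 1 to 9 (orange circles) and 10 or more (green diamonds) mitosis UMIs of 5000, over its level in cells with 0, as the median of 6 baseline libraries. Rrm2 reaches 5.20 in the last bin, and Ung is at 1.52 in the middle bin and -0.48 in the last.

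Replication transcripts were also counted cell by cell. In 5000 UMIs a baseline cell held a median of 6 to 8 UMIs from the 43 genes, and a transplant cell 13 to 15. Cells with at least 20 such UMIs made up 24.3% (exact 95% binomial interval 23.2% to 25.3%) and 25.03% (24.0% to 26.0%) in baseline Control, 27.6% (26.6% to 28.6%) and 25.7% (24.8% to 26.6%) with Ezh2 KO, and 22.3% (21.4% to 23.4%) and 22.5% (21.5% to 23.5%) with Jarid2 KO. The intervals cover counting error only. The 3 genotypes did not overlap here, at group means of 24.6%, 26.6% and 22.4%, with a spread between replicates of 0.845 percentage points (SD). At a depth of 3000 UMIs, with the limit scaled to it, Control (23.0% and 24.7%) and Ezh2 KO (26.9% and 24.5%) overlapped, and both Jarid2 KO libraries (21.5% and 21.4%) lay below them. The differences kept their sign with other limits: Ezh2 KO minus Control was 2.00 percentage points at 20 UMIs, 2.23 at 10 and 0.67 at 40, Jarid2 KO minus Control was -2.24, -2.19 and -0.48, and Jarid2 KO minus Ezh2 KO was -4.23, -4.43 and -1.15. At 40 UMIs the group means were also far lower, at 2.29% in Control, 2.96% with Ezh2 KO and 1.81% with Jarid2 KO. Set against those means the differences were not smaller. The shares are given as a description and were not tested. An exact permutation test of 2 libraries against 2 cannot go below p = 0.3333. Cells at or above 20 had a median of 16382 to 19384 UMIs before thinning, against 9933 to 11732 in the others, and the part of depth was not tested. By marker list the share was 15.1% to 16.1% in stem, 17.7% to 23.6% in lymphoid, 40.7% to 51.7% in myeloid and 45.4% to 62.6% in B list cells. After transplantation the share was 36.8% in Control, 36.0% and 36.1% with Ezh2 KO, and 32.3% and 37.6% with Jarid2 KO, so the Jarid2 KO libraries lay on both sides of the rest. The differences from Control there turned with the limit: Ezh2 KO minus Control was -0.74 percentage points at 20 UMIs, -5.76 at 10 and 1.33 at 40, and Jarid2 KO minus Control was -1.87, -5.01 and 0.51.

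**Figure D5:**
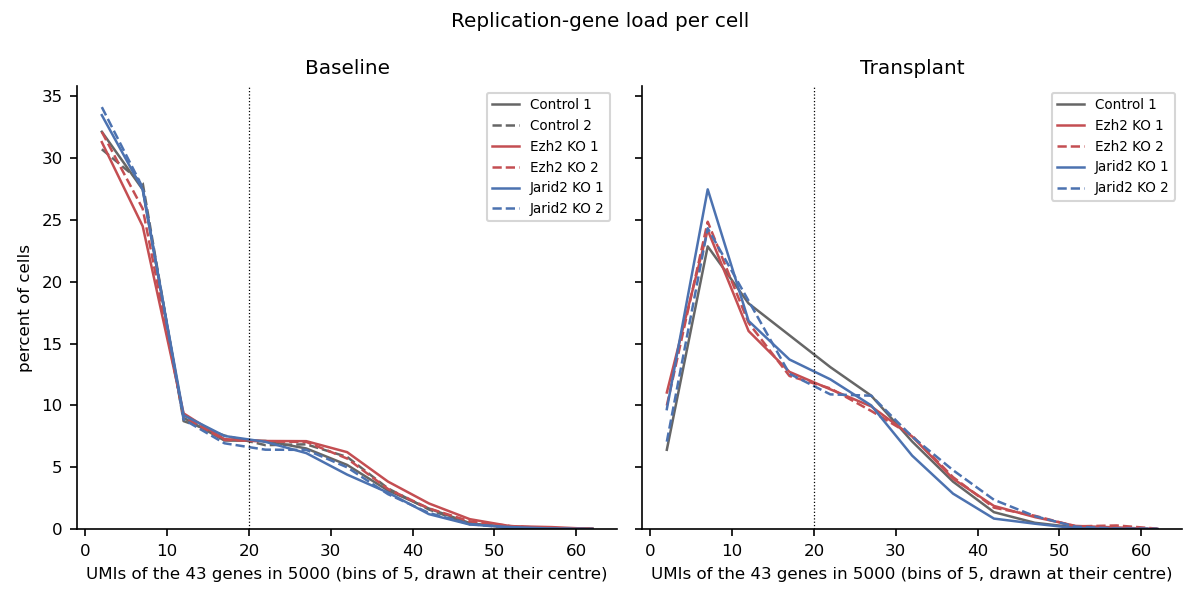
Percent of cells (y) by the number of UMIs from the 43 genes in 5000 (x, bins of 5) in each library, for baseline and transplant. The baseline libraries peak in the lowest bin and the transplant libraries in the second, and the dotted line marks 20 UMIs, above which lie 22.3% to 27.6% and 32.3% to 37.6% of cells.

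After transplantation edgeR called none of the 43 genes in any of the 3 genotype comparisons, against 0.369% of all 15735 genes tested for Jarid2 KO and 4.94% for Ezh2 KO against Control, and 12.3% for Jarid2 KO against Ezh2 KO, and DESeq2 called none. At an unadjusted p under 0.05 the counts were 2, 4 and 1, or 4.65%, 9.30% and 2.33% of members, against 8.41%, 17.2% and 26.4% of all genes. In Jarid2 KO against Control the smallest p-values belonged to Pola1 (-0.36 ± 0.13, SE, adjusted p = 0.508), Pole, the catalytic subunit of polymerase epsilon (-0.36 ± 0.14, adjusted p = 0.549), Mcm10 (-0.22), Dtl (-0.21) and Pold1 (-0.24), by edgeR. In Ezh2 KO against Control they belonged to Cdc6 (-0.30 ± 0.10, SE, adjusted p = 0.176), Pole (-0.35 ± 0.14, adjusted p = 0.264), Cdt1 (-0.26 ± 0.11, adjusted p = 0.284), Mcm10 (-0.25) and Pola1 (-0.25). Between the knockouts they belonged to Cdc6 (0.24 ± 0.08, SE, adjusted p = 0.116), Cdt1 (0.20), Prim1, the catalytic primase subunit (-0.13), Gins3 (-0.14) and Rfc4, a clamp loader subunit (-0.11). Rrm2 stood at 84.8 CPM in Control, 88.3 and 85.4 with Ezh2 KO, and 77.6 and 102 with Jarid2 KO. Median member changes were -0.02, 0.00 and -0.03. Of the 55 further genes only E2f2 was called, in Jarid2 KO against Ezh2 KO (-0.59, adjusted p = 0.0250, edgeR), and at -0.04 without B list cells it was no longer called (adjusted p = 0.874). That call was also lost in male cells alone (-0.37, adjusted p = 0.197), with a stricter cell filter (0.0525), without the first Ezh2 KO library (0.109) and without the second Jarid2 KO library (0.0755). B list cells were 0.0805% of Control, 5.57% and 3.40% of Ezh2 KO and 0.413% and 0.683% of Jarid2 KO cells. Under the lymphoid list edgeR also called none after transplantation, with 15 members lower in Jarid2 KO than in Control at an unadjusted p under 0.05 (none higher, against 7.24% of all genes in either direction) and a median of -0.39. Of all genes it called 0%, 0.346% and 2.11% under that list and 0.263%, 2.46% and 8.08% under the myeloid list in the same order of comparisons. These fits take the lone Control to vary as the other libraries do. Under the lymphoid list that Control held only 78 cells, with a summed member level of 3707 CPM. The knockout libraries all lay below it there, at 3354 and 3170 with Ezh2 KO and 3032 and 3202 with Jarid2 KO.

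The levels themselves differed between the experiments. In 26 members (60.5%) every transplant library lay above every baseline library, against 16.5% of all 15471 genes tested in both experiments, and in 4 (9.30%), Orc1, Pola1, Prim2 and Pole, every one lay below, against 42.4%. Prim2 stood at 64.4 to 72.4 CPM at baseline and 26.0 to 28.1 after transplantation, and Pola1 at 183 to 204 and 75.5 to 95.6. Mcm3 went from 130.0 to 147 up to 205 to 244, and Mcm5 from 57.8 to 71.5 up to 117 to 133. The experiments also differed in transplantation, in the sexes of the cells, in cell composition and in the version of the counting software, so these cannot be told apart. Cells under the myeloid list were 2.00% to 6.53% of baseline and 61.0% to 88.0% of transplant cells, and their summed level was 3809 to 4170 and 3376 to 3773 CPM.

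The genotype changes were also compared between the experiments. None of the 43 was called by edgeR for any of the 3 contrasts, against 0, 0.359% and 2.31% of all 18927 genes, with 0, 4 and 3 members at an unadjusted p under 0.05 in the same order as above. Those are 0%, 9.30% and 6.98% of members, against 5.09%, 9.12% and 16.1% of all genes. Rrm2 gave the largest difference, transplant minus baseline, of 0.93 ± 0.23 in Jarid2 KO against Ezh2 KO (SE, adjusted p = 0.0827, edgeR) and -0.79 ± 0.25 in Ezh2 KO against Control (adjusted p = 0.349). With sex as a term at baseline the former was called (adjusted p = 0.0221), as it was by DESeq2 (adjusted p = 0.00383), and without B list cells it was 0.33 (adjusted p = 0.276). Next in Ezh2 KO against Control came Cdc6 (-0.41), Mcm10 (-0.41), Rfc3 (-0.27) and Rrm1 (-0.27), and in Jarid2 KO against Ezh2 KO Cdc6 (0.31), Gins2 (0.23), Orc1 (0.26) and Orc6 (0.19). For Jarid2 KO against Control, Pola1 (-0.29), Pole (-0.36), Mcm10 (-0.28), Pole2 (0.23) and Ung (0.24) had the smallest p-values.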

How the data were processed

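Droplet 3′ gene expression was measured in 11 libraries of sorted mouse marrow cells, and surface antibodies in the 6 baseline ones. The files hold the authors' deposited filtered UMI counts per gene and barcode. Per the file headers the baseline counts come from Cell Ranger 7.2.0 and the transplant counts from 6.1.2, while the submitters' processing notes name Cell Ranger 3.1.0, Seurat 3.0 and Partek, on mm10. CUT&Tag profiles (6 samples) are not used here. Antibody counts of the transplant libraries are 0 in the median cell. Cells were kept with at least 1000 UMIs, at least 500 genes and at most 10% mitochondrial UMIs. That last limit removed 25.7% to 43.4% of transplant barcodes and 2.82% to 5.82% of baseline ones. After transplantation the loss differed between genotypes without overlap. It was 43.4% in Control, 36.6% and 37.4% with Jarid2 KO, and 25.7% and 27.4% with Ezh2 KO. The highest Scrublet scores, 0.8% of a library per 1000 barcodes, were removed as doublets (scanpy 1.11.5, Python 3.11.15).

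Counts were summed per library, or per library and marker list or antibody gate with at least 50 cells in each, and tested with edgeR 4.0.16 (R 4.3.3; TMM factors, quasi-likelihood test, Benjamini-Hochberg adjustment over all genes tested, threshold 0.05). The baseline fit holds genotype and sex. The transplant fit holds genotype, and the fit of differences between experiments holds each group. At baseline the same-numbered libraries share a sex, and their deviations from group means correlated at 0.645, 0.749 and 0.629 over 8839 genes, so sex is the block. Alternatives were DESeq2 1.42.0, other filters, factors and thresholds, and each library left out. The edgeR fits were tested on simulated counts, with planted changes larger than most reported here and without sex effects. Those runs do not bear on calls of smaller changes.

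For each contrast of whole libraries the text names called members, up to 10 by change, and fills up to 5 by the smallest p. Of the 55 further replication genes it names up to 4 called, and within lists and gates up to 2, while Rfc3 and Pcna in 1 gate were named after their values were seen. The members and lists were chosen with earlier results of these data known. Library depth was 83956300 to 126346471 UMIs at baseline and 67533820 to 111346978 after transplantation.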

Additional observations from a re-analysis of the deposited data

Results flagged for a closer look

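The change of Ezh2 itself in Ezh2 KO against Control differed between the experiments, by -1.85 on the log2 scale for transplant minus baseline (adjusted p = 0.0029, edgeR). Its change in Jarid2 KO against Ezh2 KO differed by 1.79 (adjusted p = 0.0007, edgeR). Both rest on a test of the difference itself. No difference in a replication gene was called between the experiments in those fits. At baseline Ezh2 itself just missed the threshold in Ezh2 KO against Control (-0.33, adjusted p = 0.0599, edgeR). DESeq2 called it lower (-0.32, adjusted p = 0.000829). So did edgeR without the filter on low counts (-0.32, adjusted p = 0.0417) and without B list cells (-0.41, adjusted p = 0.0442). After transplantation its change was -2.18, against a lone Control library. The experiments also differed in cell composition and counting software, and the parts of these were not tested.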

How the results depend on the processing

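The baseline calls rest on 1 male and 1 female library a group. For Ezh2 KO against Control at baseline, DESeq2 called 4 members, against 1 by edgeR, and 0 were called without the sex term (no replicate block) or without B list cells. For Jarid2 KO against Ezh2 KO, DESeq2 called 5, against 3, and 0 were called under the other 2 settings. The member medians without B list cells were 0.0181 and -0.0296. For the difference between experiments in Jarid2 KO against Ezh2 KO, DESeq2 and a sex term each called 1. Within marker lists, calls in Ezh2 KO against Control (2) came to 1 with at least 2 or 4 markers, 0 by DESeq2 and 1 without the block. In Jarid2 KO against Control (1) they came to 5 with at least 4 markers, 0 by DESeq2 and 0 without the block, and in Jarid2 KO against Ezh2 KO (1) to 0 under each of these. Within gates, calls in Ezh2 KO against Control (4) came to 0 without B list cells, without the block and with stricter antibody thresholds. In Jarid2 KO against Ezh2 KO (8) they came to 2 without B list cells, 0 without the block, 5 with thresholds from pooled Control cells and 1 with the stricter ones. The share of all genes called under each setting is not set beside these counts, nor beside those of whole libraries with 1 left out. They describe how stable the calls were and are not a result about the members. The causes were not tested.

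Leaving out 1 library gave 0 to 5 members called in Ezh2 KO against Control (median 0.00772 to 0.175), 0 to 9 in Jarid2 KO against Ezh2 KO (median -0.217 to -0.0478), and medians of -0.0964 to 0.0368 in Jarid2 KO against Control. The 5 and 9 came without the female Ezh2 KO library, the 0 in both without the male one, and in the first also without the female Control. Within gates the counts were 1 to 35, 1 to 41 and 0 to 1, the highest of the first 2 again without the female Ezh2 KO library. Within lists they were 2 to 5, 0 to 18 (18 without the male Ezh2 KO library) and 0 to 5, and after transplantation 0 to 1 in Ezh2 KO against Control. Asf1b in Jarid2 KO against Ezh2 KO turned to 0.0313 without B list cells. Ezh2 in Jarid2 KO against Control, near 0, turned to 0.0146 without B list cells and, leaving out 1 library, ranged from -0.122 to 0.0688 (0.00138 without the male Control).

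The share of cells at the high member load (24.6% over baseline libraries) was 40.9% at 10 UMIs, 2.35% at 40 and 23.7% at a depth of 3000 UMIs, and after transplantation 66.4% and 2.75% at 10 and 40. The transplant knockout libraries share only a number (correlation of deviations -0.0128). With the replicate block on them, 0 members were called and the median was -0.0361.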
